A study of Mus musculus with 6 samples.

Results

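Long non-coding RNA (lncRNA) genes expressed in BV2 cells, a mouse microglial line, were compared between SMEK1 knockdown and WT cells. The 142 genes described here were selected on 3 values of the count table. The biotype had to be an lncRNA class (lincRNA, antisense, bidirectional promoter, sense intronic or sense overlapping), the counts of the 6 libraries together had to reach 300, and neither Gas5 nor any gene whose symbol starts with Snhg was taken. The table lists 54532 genes, of which 8898 have such a biotype and 2748 of those had a count in any library. Of the 142 genes, 78 are listed as lincRNA, 48 as antisense, 13 as bidirectional promoter, 2 as sense intronic and 1 as sense overlapping. The 4 Snhg genes that reached 300 counts (Snhg6, Snhg10, Snhg12 and Snhg20) were left out by the rule. Just inside the threshold were Gm26982 with 302 counts and Gm17399 and Gm29154 with 306 each. Just outside it were Mypopos with 299, B930095G15Rik with 294 and 9330151L19Rik with 290.

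RNA-seq libraries were made from 2 groups of 3 samples, named A, B and C in each group. The genotype label of the first group is SMEK1 knockdown, and the letters LV in its names go with LV1 in the design text. The second group is labelled WT, but the design text counts both LV1 and NL as knockdown derivatives of BV2, so a control construct may or may not be present in the WT cells. Both groups were grown in the same serum-containing medium with no labelled stimulus, and the title of the series places them in work on SMEK1, histone lactylation and brain ischaemia. Separate cultures or clones are nowhere stated, so the spread between them may be technical.

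Long non-coding RNAs are transcripts longer than most small RNAs that are not translated into a known protein. Some act in the nucleus as scaffolds, as Xist does on the inactive X chromosome and Neat1 does in paraspeckles. Others are precursors of microRNAs, or arise from the shared promoter region of a protein-coding gene and run away from it on the opposite strand (divergent transcripts), and many are short-lived and kept low by the RNA exosome. Their symbols often are clone names ending in Rik or predicted gene numbers starting with Gm, for which no function is claimed here.

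The target gene Ppp4r3a, which encodes the protein phosphatase 4 subunit SMEK1, had 48, 122 and 94 counts in knockdown libraries A to C, against 335, 227 and 260 in WT libraries A to C. It fell by 1.94 on the log2 scale (standard error, SE, 0.24 and adjusted p = 8.22e-05 from the quasi-likelihood test of edgeR, Benjamini-Hochberg adjusted over all 12269 genes tested). Genes are called higher or lower at an adjusted p under 0.05, and log2 fold changes are of knockdown over WT. The knockdown libraries held 18627425 to 21131557 counts each and the WT libraries 18036591 to 18708438. Of 12 microglia and macrophage markers 10 were tested, of which 2 were called higher (Tmem119 and Trem2) and 5 lower (Cd68, Csf1r, Itgam, Spi1 and Tyrobp). The share called was 70.0%, beside 40.1% of all genes tested. The 12 markers summed to 3693 to 4044 CPM in knockdown libraries and 4165 to 4613 CPM in WT libraries. CPM are counts per library size, scaled by the TMM factors of edgeR. Defining markers of astrocytes (Aldh1l1, Aqp4), endothelial cells (Cdh5, Cldn5) and fibroblasts (Col1a2, Dcn, Pdgfra) were at 0 in all libraries, and the 3 lists summed to at most 0.648 CPM in any library. Of the neuron markers Map2, Snap25 and Syt1 were at 0 and the summed level was 0.800 to 1.81 CPM in knockdown libraries and 0.418 to 0.706 CPM in WT libraries, while the oligodendrocyte markers, led by Mbp, summed to 7.15 to 7.41 CPM in knockdown libraries and 2.45 to 2.70 CPM in WT libraries. In such bulk RNA fewer cells of a type and less RNA per cell cannot be told apart.

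The lncRNA genes were a small part of each library. They held 0.171%, 0.190% and 0.178% of counts in knockdown libraries A to C, against 0.174%, 0.157% and 0.161% in WT libraries A to C. The knockdown mean was 0.180 ± 0.00936% and the WT mean 0.164 ± 0.00887% (SD, n = 3 each), with an exact permutation p of 0.2, where 3 against 3 libraries cannot go below 0.1. Without Malat1, a nuclear lncRNA, the share was 0.173 ± 0.00746% in knockdown libraries and 0.151 ± 0.00368% in WT libraries, every knockdown library was above every WT library, and the exact permutation p was 0.1. The 5 genes with the most counts (1810058I24Rik, Gm26917, Xist, Ndufb1-ps and Malat1) took 32.1% of all counts of the 142. Per length, the deposited FPKM (counts over gene length and a library constant) averaged over the 6 libraries ran from 0.274 for AC127341.3 to 108 for Epb41l4aos, with a median of 3.26.

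More of these genes were called higher than lower in the knockdown libraries, but the share called at all was close to that of the transcriptome. All 142 passed the filter on low counts and were tested, and 55 (38.7%) were called, beside 40.1% of all genes tested and 43.1% of protein-coding genes with at least 300 counts. Of these, 36 (25.4%) rose, beside 20.5% of all genes tested, and 19 (13.4%) fell, beside 19.6%. The median log2 fold change was 0.12 over the 142 genes and 0.01 over all genes tested. When libraries were scaled by their totals alone, the median of all genes tested moved to 0.17 and that of the lncRNA genes to 0.28, and 49 were called higher and 10 lower, so the split depends on the scaling. Counts of the groups did not overlap, after scaling, for 81 of the 142 (57.0%), beside 50.9% of all genes tested. A called change of at least 2-fold was seen in 11 upward and 5 downward cases, beside 9.28% of all genes tested in either direction. A gene low in 1 group can reach the sum of 300 through the other. Of the 115 genes with at least 150 counts in each group, 25 (21.7%) were called higher, close to the 20.5% of all genes tested. Another 13 (11.3%) were called lower, beside 19.6%. The median log2 fold change of the 115 was 0.06, smaller than over the 142.

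**Figure D1:**
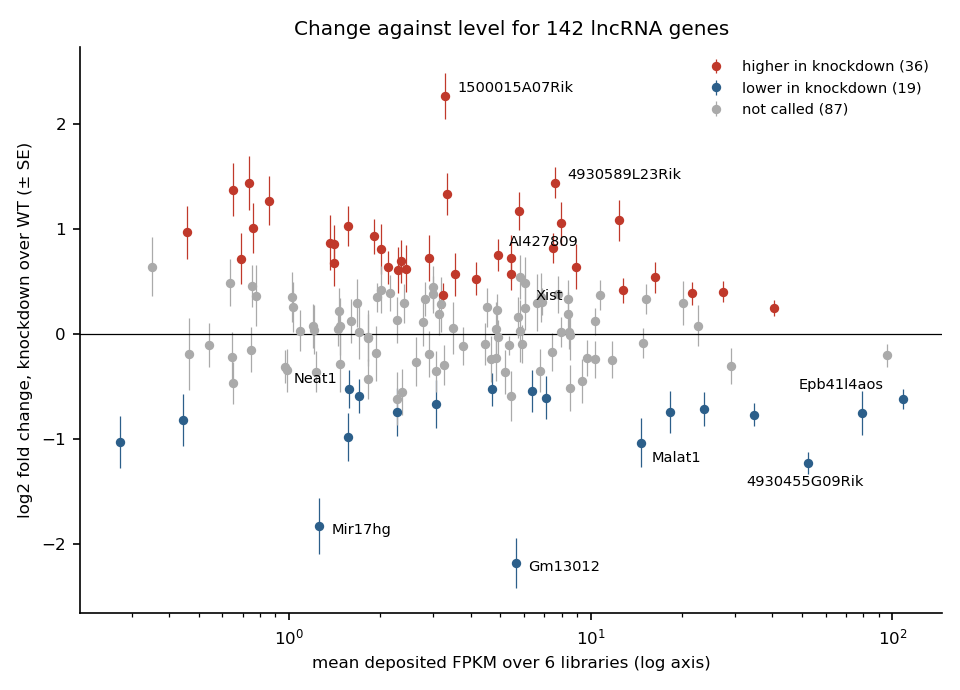
Log2 fold change of knockdown over WT (y axis, with SE) against the mean deposited FPKM over the 6 libraries (x axis, log scale) for 142 lncRNA genes, coloured by call. The 36 genes called higher and the 19 called lower span the range of levels, with 1500015A07Rik highest at 2.27 and Gm13012 lowest at -2.18.

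The largest rise was that of 1500015A07Rik (ENSMUSG00000098702), an antisense gene on the plus strand of chromosome 18 from 61726390 to 61735917 (GRCm38). It had 251, 238 and 310 counts in knockdown libraries A to C, against 34, 51 and 50 in WT libraries A to C. Every knockdown library lay well above every WT library. The log2 fold change was 2.27 (SE 0.22 and adjusted p = 1.29e-05, edgeR quasi-likelihood). It overlaps Afap1l1, an actin-filament-associated protein gene on the opposite strand, which had a log2 fold change of -0.37 (SE 0.20 and adjusted p = 0.155). Bvht (Braveheart, known from mouse heart development), an lncRNA gene upstream on the same strand at chr18:61639542-61647472, had 103, 145 and 156 counts in knockdown libraries, against 80, 95 and 112 in WT libraries, which overlap after scaling (log2 fold change 0.19, adjusted p = 0.491).

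Of the 10 largest rises 5 were divergent transcripts, which start within 2 kb of the start of a protein-coding gene on the other strand and run away from it without overlapping it. The largest of these was 4930589L23Rik, next to Fnip2, a folliculin-interacting protein gene. It had 291, 327 and 354 counts in knockdown libraries A to C, against 105, 89 and 99 in WT libraries A to C, with no overlap. Its log2 fold change was 1.44 (SE 0.15 and adjusted p = 1.92e-05), while Fnip2, whose start is 396 bases away, had 0.21 (SE 0.11 and adjusted p = 0.162).

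Among all 25 divergent genes 12 (48.0%) were called higher, beside 20.5% of all genes tested, and 1 (4.00%), Gm17399, lower, beside 19.6%. Their median log2 fold change was 0.38. The split holds for pairs that do not overlap: of 24 lncRNA genes whose start is as close but which overlap the coding gene on the other strand, 3 were called higher (Gm37305, Gm48226 and 2810402E24Rik) and 3 lower (AC127341.3, Gm10419 and Zfp335os), with a median of -0.18. With these included, a grouping chosen after seeing the data, 15 of 49 (30.6%) were higher and 4 (8.16%) lower, with a median of 0.33. By the biotype of the count table the counts were as follows: 7 of 13 (53.8%) bidirectional promoter genes were called higher and 0 lower (0 also at an unadjusted p under 0.05 and with DESeq2), with a median of 0.73. Among 78 lincRNA genes 17 (21.8%) were higher and 13 (16.7%) lower (median 0.02), both close to the shares of all genes tested. Among 48 antisense genes 12 (25%) were higher and 6 (12.5%) lower (median 0.30). The classes were not tested against each other, and both groupings share genes. The check with at least 150 counts in each group was made for the whole set, not within a class or among the divergent genes. How far their shares called higher rest on genes that reached the summed count mainly through the knockdown libraries was not tested.

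Their partners were found on both sides of 0. In 10 of 25 divergent pairs both genes had a fold change of the same sign, beside 577 of 989 (58.3%) divergent pairs of protein-coding genes. Of the 12 risen divergent lncRNA genes 2 had a partner that was also called higher, 3 had a partner called lower and 7 had a partner that was not called. Beside this, 40.1% of all genes tested were called, 20.5% higher and 19.6% lower. A shared rise was seen for 9330104G04Rik and Dact3, a gene of a Wnt pathway antagonist. The lncRNA had 59, 79 and 106 counts in knockdown libraries, against 27, 24 and 22 in WT libraries. Its log2 fold change was 1.44 (SE 0.26 and adjusted p = 0.00104) and that of Dact3 was 1.08 (SE 0.18 and adjusted p = 0.000683). Gm4890 and Mmaa, a gene of mitochondrial cobalamin handling, had log2 fold changes of 1.01 and 0.65, both called.

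Opposite calls were seen for 2610306M01Rik and Aak1, a kinase gene of clathrin-coated vesicles. The lncRNA had 166, 185 and 185 counts in knockdown libraries A to C, against 72, 69 and 54 in WT libraries A to C. It was thus higher in every knockdown library, with a log2 fold change of 1.17 (SE 0.18 and adjusted p = 0.000353). Aak1 averaged 20.3 ± 4.84 CPM in knockdown libraries and 28.2 ± 3.28 CPM in WT libraries (SD, n = 3 each), with ranges that overlap, and had a log2 fold change of -0.47 (SE 0.16 and adjusted p = 0.0381). The other opposite pairs were AV356131 (0.73) with Pik3c2a (-1.28), a phosphoinositide kinase gene, and 2210008F06Rik (0.73) with Ankrd13b (-0.44).

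Rises with no call in the partner included 2810013P06Rik beside Ankrd11, a chromatin regulator gene, with log2 fold changes of 1.33 and -0.02, and 1700007L15Rik beside Zfp148, a zinc-finger factor gene, with 1.06 and 0.08. The counts of 1700007L15Rik were 163, 186 and 159 in knockdown libraries A to C, against 79, 48 and 74 in WT libraries A to C. The 57 protein-coding genes tested within 5 Mb of it had a median of 0.34 on the log2 scale, so the stretch of chromosome 16 around it was higher in the knockdown as well; whether this moves the lncRNA was not tested. Fam120aos beside Fam120a had 0.82 (SE 0.15 and adjusted p = 0.000893) and 0.03, and Cep83os beside Cep83, a centriole gene, had 0.97 (SE 0.25 and adjusted p = 0.0099) and -0.54 (adjusted p = 0.119).

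**Figure D2:**
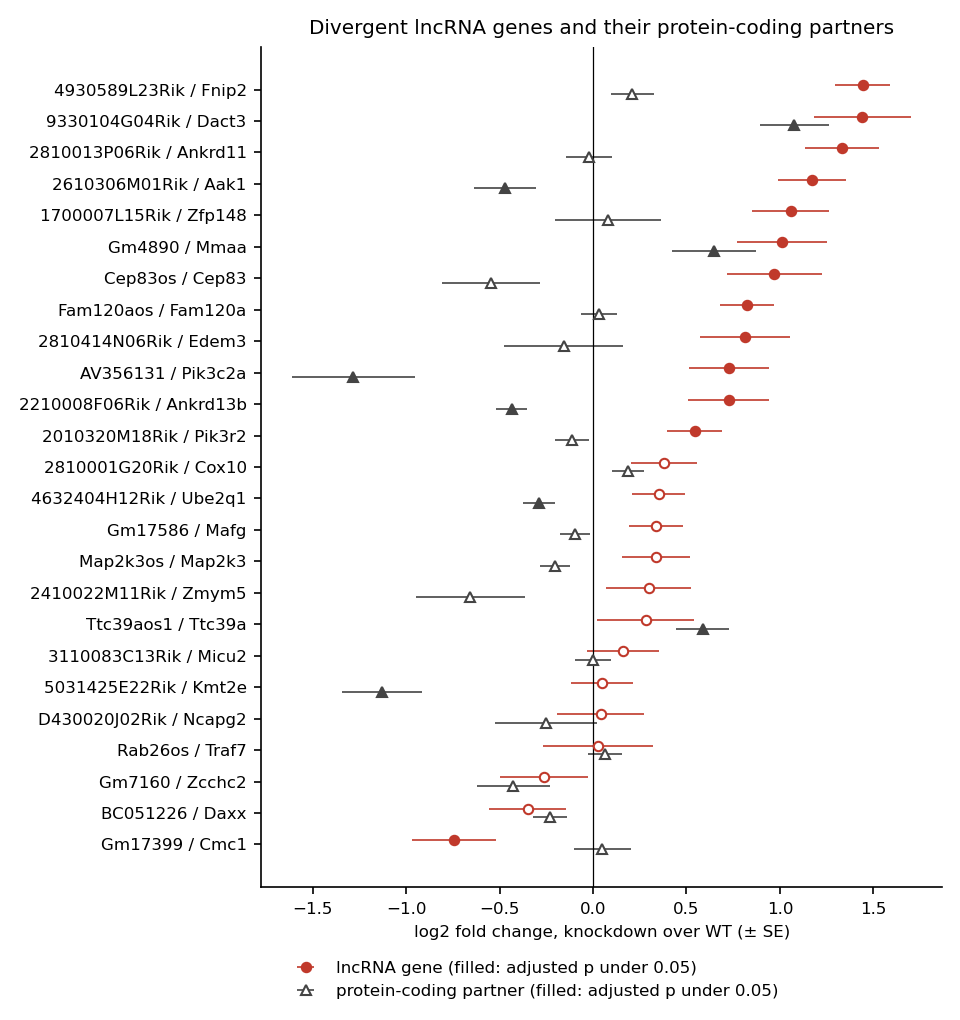
Log2 fold change of knockdown over WT (x axis, with SE) for 25 divergent lncRNA genes (circles) and the protein-coding gene that starts within 2 kb of each (triangles), in order of the lncRNA. Filled symbols have an adjusted p under 0.05, and 12 of the circles are filled on the right of 0 and 1 on the left, while the partners lie on both sides.

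The sequence from which such pairs start is shown for 2 of them, with the bases between both annotated starts in capitals. RefSeq (GRCm38.p6) held a 300-base promoter, 250 bases before the start to 50 after it, for 84 of the 142 genes. The starts of 2610306M01Rik and Aak1 are 77 bases apart and those of 1700007L15Rik and Zfp148 109 bases apart, so both genes of a pair are read outward from these capitals. Both lncRNAs are on the minus strand, at chr6:86849391-86849690 and chr16:33380687-33380986.
2610306M01Rik: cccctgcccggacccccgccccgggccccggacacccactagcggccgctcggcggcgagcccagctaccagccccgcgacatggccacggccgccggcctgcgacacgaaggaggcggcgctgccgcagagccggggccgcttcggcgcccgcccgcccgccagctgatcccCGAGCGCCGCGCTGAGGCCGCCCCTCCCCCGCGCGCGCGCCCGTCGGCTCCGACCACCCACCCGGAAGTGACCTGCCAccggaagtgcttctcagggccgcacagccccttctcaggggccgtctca
1700007L15Rik: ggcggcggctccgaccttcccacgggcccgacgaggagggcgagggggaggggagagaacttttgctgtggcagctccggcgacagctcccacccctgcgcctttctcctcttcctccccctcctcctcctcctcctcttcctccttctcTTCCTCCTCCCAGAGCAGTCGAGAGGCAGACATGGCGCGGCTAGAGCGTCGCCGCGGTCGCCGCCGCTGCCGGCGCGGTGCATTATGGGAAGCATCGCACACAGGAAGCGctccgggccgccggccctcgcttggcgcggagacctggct

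Both promoters are rich in G and C, at 79% and 70%. The median over 22 divergent lncRNA genes with a promoter was 68.8% with 31 CpG, against 55% with 12.5 CpG over the 62 other lncRNA genes and 61.3% with 22 CpG over 7621 protein-coding genes with at least 300 counts. These are descriptions of the windows, with no test.

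Motifs were counted on both strands of the same windows. CACGTG (E-box, bound by MYC and other helix-loop-helix factors) was in 14 of 84 (16.7%) lncRNA promoters, beside 11.2% of the expressed protein-coding ones and 7.24% of all 27025. TGACGTCA (cAMP response element) was in 4 (4.76%), beside 3.52% and 1.88%. GAAANNGAA (interferon regulatory factor site) was in 7 (8.33%), beside 6.94% and 8.57%, and TTCNNNGAA (interferon-gamma activated site) in 6 (7.14%), beside 6.47% and 8.47%. Any overlap between matches was allowed, and a match is a description of the letters. Windows of 2 risen genes are shown because each holds a match, in capitals: 9330104G04Rik (chr7:16874837-16875136, minus strand, an E-box at position -47 from the start) and AI427809 (chr4:53270183-53270482, minus strand, an interferon regulatory factor site just after the start).
9330104G04Rik: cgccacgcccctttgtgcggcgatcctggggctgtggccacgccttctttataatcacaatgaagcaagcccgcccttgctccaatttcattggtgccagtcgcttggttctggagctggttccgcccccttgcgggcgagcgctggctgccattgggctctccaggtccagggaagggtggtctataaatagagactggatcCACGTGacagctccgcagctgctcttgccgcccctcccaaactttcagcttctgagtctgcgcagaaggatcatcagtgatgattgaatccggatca
AI427809: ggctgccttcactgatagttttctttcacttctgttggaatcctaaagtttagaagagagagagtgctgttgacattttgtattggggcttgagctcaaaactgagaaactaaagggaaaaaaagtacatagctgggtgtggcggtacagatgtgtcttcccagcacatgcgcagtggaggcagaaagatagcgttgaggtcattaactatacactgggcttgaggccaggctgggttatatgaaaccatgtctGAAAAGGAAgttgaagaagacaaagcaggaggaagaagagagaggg

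AI427809 is Mexis in RefSeq, an lncRNA reported in mouse macrophages to raise Abca1, the cholesterol exporter gene of the same locus. Mexis had 263, 328 and 353 counts in knockdown libraries A to C, against 151, 133 and 172 in WT libraries A to C, with no overlap. It rose by 0.76 on the log2 scale (SE 0.15 and adjusted p = 0.00228), while Abca1 had a log2 fold change of -0.46 (SE 0.18 and adjusted p = 0.0611). Gm14005, known as Morrbid, was described in mouse myeloid cells as a repressor of the death gene Bcl2l11. Morrbid had 90, 123 and 125 counts in knockdown libraries, against 122, 133 and 141 in WT libraries, and its CPM ranges did not overlap. Its log2 fold change was -0.53 (SE 0.18 and adjusted p = 0.0357), a call lost when any library but WT A was left out, and that of Bcl2l11 was 0.24 (SE 0.09 and adjusted p = 0.064). Mexis, Morrbid, Norad, Cyrano and Stmp1 were picked out after their values were seen, since their symbols in the count table are clone names.

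The other large rises lay across protein-coding genes or farther from them. 2900093K20Rik lies antisense within Oser1, an oxidative stress response gene, and both rose, with log2 fold changes of 1.09 (SE 0.20 and adjusted p = 0.00106) and 0.41 (SE 0.10 and adjusted p = 0.00612). Gm37305 had 74, 80 and 104 counts in knockdown libraries, against 23, 26 and 32 in WT libraries, and a log2 fold change of 1.37 (SE 0.25 and adjusted p = 0.00114). It shares 10.3% of its exon bases with the opposite strand of Ccnl1, a cyclin gene of RNA splicing, which had -0.43 (adjusted p = 0.133). Zfp469, listed as a lincRNA but as protein-coding in RefSeq, had 72, 83 and 85 counts in knockdown libraries, against 25, 29 and 27 in WT libraries (log2 fold change 1.27, SE 0.23 and adjusted p = 0.00108). Its neighbour Zfpm1, a cofactor of GATA factors, fell by 0.61 on the log2 scale. 4632415L05Rik, a transcribed pseudogene in RefSeq, rose by 1.03 (SE 0.19 and adjusted p = 0.00124). Cp, the ceruloplasmin gene 58070 bases away, fell by 1.15 (SE 0.38 and adjusted p = 0.031). The level of Cp was 0.716 ± 0.354 CPM in knockdown libraries and 1.62 ± 0.155 CPM in WT libraries.

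**Figure D3:**
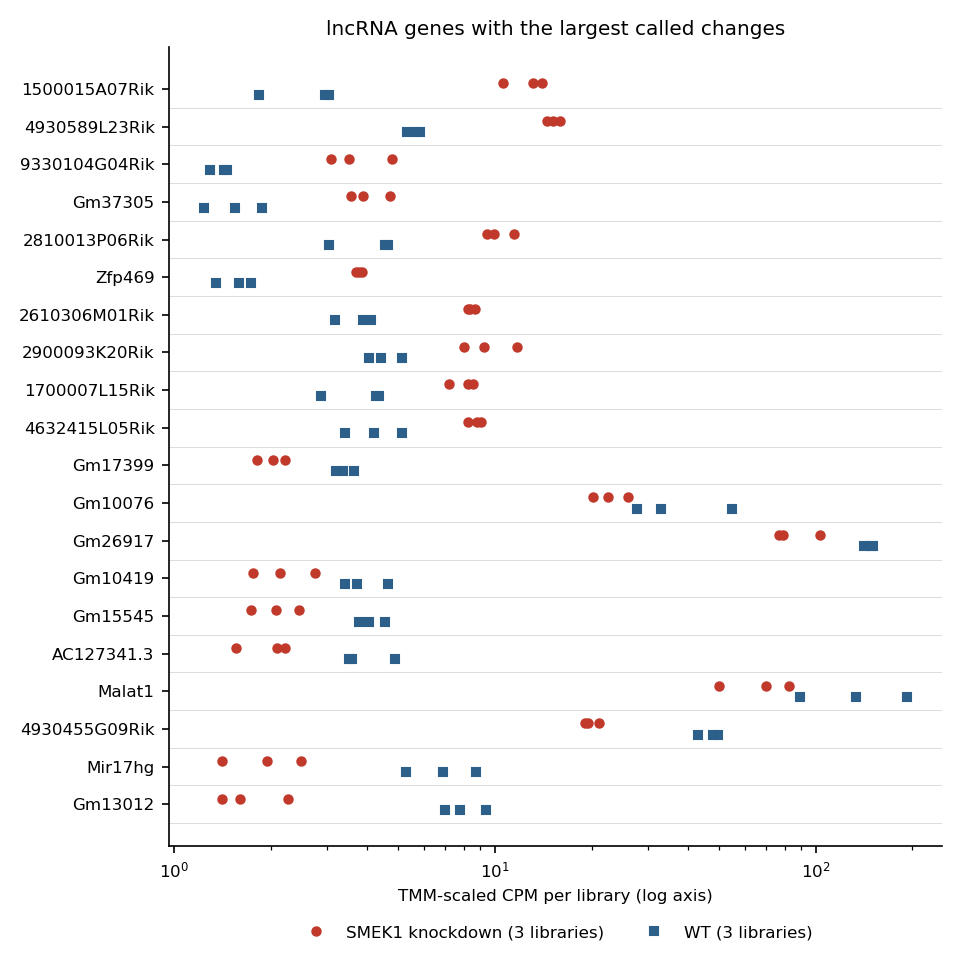
TMM-scaled CPM per library (x axis, log scale) for the 20 lncRNA genes with the largest called changes, 10 up and 10 down, with SMEK1 knockdown libraries as circles above WT libraries as squares. In each of the 20 genes all 3 knockdown libraries lie on the same side of all 3 WT libraries, which the choice of these genes required.

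The host gene of the miR-17-92 cluster, a set of microRNAs known to promote cell proliferation, was among the largest falls. The span of Mir17hg (plus strand, chr14:115042879-115046727) holds 6 microRNA hairpins of RefSeq (GRCm38.p6). The mature sequences of the better known arms are printed with the seed, bases 2 to 8, in capitals. miR-17-5p and miR-20a-5p share 1 seed, and miR-19a-3p and miR-19b-3p another. The 2 arms of miR-142a from Mir142hg (plus strand, chr11:87755577-87757270), a host gene of blood cells, are shown beside them because that host gene was also measured.
mmu-miR-17-5p: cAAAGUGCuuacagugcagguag
mmu-miR-20a-5p: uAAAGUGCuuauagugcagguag
mmu-miR-18a-5p: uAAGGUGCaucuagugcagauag
mmu-miR-19a-3p: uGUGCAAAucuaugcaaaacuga
mmu-miR-19b-3p: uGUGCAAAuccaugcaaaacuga
mmu-miR-92a-3p: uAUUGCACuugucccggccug
mmu-miR-142a-5p: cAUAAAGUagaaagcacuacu
mmu-miR-142a-3p: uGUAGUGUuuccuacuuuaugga

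Mir17hg (ENSMUSG00000089726) had 27, 56 and 43 counts in knockdown libraries A to C, against 162, 115 and 90 in WT libraries A to C. All knockdown libraries were below all WT libraries. The mean was 1.95 ± 0.539 CPM in knockdown libraries and 6.97 ± 1.73 CPM in WT libraries (SD, n = 3 each), and it fell by 1.83 on the log2 scale (SE 0.26 and adjusted p = 0.000229). Mir17hg lies in a stretch of chromosome 14 where genes were lower altogether: the 6 protein-coding genes tested within 5 Mb had a median of -0.96 on the log2 scale, and its own change cannot be told apart from that of the stretch. The counts are of the host transcript and not of mature microRNAs, which libraries of this kind do not measure. Mir142hg had 96, 160 and 149 counts in knockdown libraries, against 100, 96 and 115 in WT libraries, which overlap after scaling (log2 fold change 0.08, SE 0.20 and adjusted p = 0.774). Of the 6 tested genes in a list of 14 microRNA host lncRNAs 0 were called higher and 1, Mir17hg, lower, with a median of -0.23 (0 higher also at an unadjusted p under 0.05 and with DESeq2). The share called was 16.7%, beside 40.1% of all genes tested. Of the 6, Mir703 is listed as a microRNA gene and not as a host, and the median of the other 5 was -0.01.

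The largest fall was that of Gm13012 (ENSMUSG00000085823), on the minus strand at chr4:137882370-137883937, antisense within Ece1, the gene of an endothelin-converting enzyme. It had 27, 36 and 50 counts in knockdown libraries A to C, against 129, 157 and 132 in WT libraries A to C. Its log2 fold change was -2.18 (SE 0.24 and adjusted p = 2.78e-05), with no overlap between groups, while Ece1 had -0.14 (SE 0.10 and adjusted p = 0.28). None of its exon bases is shared with an exon of Ece1.

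4930455G09Rik (ENSMUSG00000085761, chr4:142017898-142028996, plus strand) fell with replicates close to each other. It had 405, 431 and 432 counts in knockdown libraries A to C, against 795, 828 and 813 in WT libraries A to C. The mean was 19.9 ± 1.07 CPM in knockdown libraries and 46.7 ± 3.40 CPM in WT libraries (SD, n = 3 each), a log2 fold change of -1.23 (SE 0.10 and adjusted p = 3.79e-06). Tmem51, 1996 bases away, also fell, by 0.48 (SE 0.11 and adjusted p = 0.00376). AC127341.3, antisense to the chromatin protein gene Hmga1 with starts 21 bases apart, fell by 1.03 (SE 0.25 and adjusted p = 0.00633) and Hmga1 by 0.37 (SE 0.08 and adjusted p = 0.00356). Gm15545 fell by 0.98 and shares 28.9% of its exon bases with the opposite strand of another gene, so reads of the 2 strands cannot be told apart. Gm10419 fell by 0.82 and Gm17399 by 0.74, calls that were each lost in several of the alternatives tried.

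Among the falls, 2 touch RNA of other origin. Gm26917 had 1466, 1785 and 2280 counts in knockdown libraries A to C, against 2622, 2522 and 2528 in WT libraries A to C. It fell by 0.77 on the log2 scale (SE 0.11 and adjusted p = 0.000177). Its 3' end (chr17:39843013-39846341) is 12 bases from CT010467.1, a gene of the rRNA biotype related to 18S rRNA on the other strand, which had 17540, 18347 and 27294 counts in knockdown libraries, against 10090, 10437 and 13656 in WT libraries, and rose by 0.59 (SE 0.16 and adjusted p = 0.0126). Gm10076, a pseudogene in RefSeq, had 431, 584 and 448 counts in knockdown libraries, against 514, 921 and 559 in WT libraries. Its log2 fold change was -0.75 (SE 0.21 and adjusted p = 0.0143), which became -0.41 without WT B. The call of Gm10076 was lost without knockdown C (adjusted p = 0.0545) and with library totals (adjusted p = 0.0507). Its transcript is 99.5% identical to that of Rpl41, a ribosomal protein gene of far higher count that fell by 0.63 (SE 0.10 and adjusted p = 0.000387), so reads of the 2 genes could be split by the counting. It also lies on chromosome 14, and the 13 protein-coding genes tested within 5 Mb had a median log2 fold change of -1.02.

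The nuclear scaffolds Malat1 and Neat1 are neighbours on chromosome 19. Malat1 (ENSMUSG00000092341), known from nuclear speckles, where splicing factors are stored, had 957, 1860 and 1547 counts in knockdown libraries A to C, against 3565, 1500 and 2273 in WT libraries A to C. After scaling the highest knockdown library, B, was just below the lowest WT library, B, so the groups nearly touch. The mean was 67.5 ± 16.4 CPM in knockdown libraries and 139 ± 51.6 CPM in WT libraries (SD, n = 3 each), and it fell by 1.04 on the log2 scale (SE 0.23 and adjusted p = 0.00424), or by 0.73 without WT A. The spread within the WT group was 2.15-fold, exceeded among the 142 genes only by Rab26os at 2.38-fold.

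Neat1, the scaffold of paraspeckles, had 284, 490 and 389 counts in knockdown libraries A to C, against 479, 334 and 365 in WT libraries A to C. The groups overlap, and the log2 fold change was -0.31 (SE 0.16 and adjusted p = 0.136). Of 20 genes of paraspeckle proteins, all tested, 4 were called higher and 3 lower, with a median of 0.06 beside 0.01 over all genes tested. The share called was 35.0%, beside 40.1% of all genes tested. Among the 20 genes Pspc1 rose by 1.13 (SE 0.16 and adjusted p = 0.000184) and Nono fell by 0.60 (SE 0.09 and adjusted p = 0.000241). Both proteins are core partners of Neat1. Of 12 genes of nuclear speckle proteins 3 were called higher and 4 lower (58.3% in all, beside the same 40.1%), with a median of -0.03. Srrm1 and Srrm2 were lower by 0.62 and 0.51 and Tra2b was higher by 0.63.

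Xist, which silences an X chromosome, had 1539, 3471 and 2718 counts in knockdown libraries A to C, against 2409, 1396 and 1492 in WT libraries A to C. The groups overlap widely, with a log2 fold change of 0.25 (SE 0.21 and adjusted p = 0.372). With all genes of at least 1 count kept in the fit, Xist was called higher (log2 fold change 0.28 and adjusted p = 0.00757). Tsix, its antisense regulator, was at 0 in all libraries, Jpx had 27, 42 and 36 counts in knockdown libraries, against 25, 28 and 19 in WT libraries, and of the 8 tested genes of the X inactivation list 0 were called higher and 1 lower. That gene was Spen, whose protein binds Xist, at -0.48 (SE 0.12 and adjusted p = 0.00796). The share of the list called was 12.5%, beside 40.1% of all genes tested. In the fit with the standard filter none of that list was higher at an unadjusted p under 0.05 either (0 of 8), nor with DESeq2 (0 of 8).

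Xist, Malat1, Tug1 and Neat1, which are among the longest transcripts, varied together between libraries of a group. Relative to the mean of the other libraries of its group on the scale of log2(CPM + 2), Xist was at -0.76 in knockdown A, 0.62 in knockdown B and 0.59 in WT A. Malat1 was at -0.58 in knockdown A, 0.47 in knockdown B and 0.80 in WT A, Tug1 at -0.42, 0.55 and 0.46, and Neat1 at -0.36, 0.39 and 0.30. AC127341.3 and Cep83os, also among the 10 longest, went the other way. They were at 0.08 and 0.19 in knockdown A, -0.22 and -0.18 in knockdown B, and -0.17 and -0.33 in WT A. Of the 10 longest lncRNA genes WT A was the highest WT library in 8, beside 26.8% of the 142 genes, and knockdown B the highest knockdown library in 6, also beside 26.8%. Over the 142 genes the deviation had a Spearman correlation with gene length of -0.16 in knockdown A, 0.22 in knockdown B, 0.27 in WT A and -0.27 in WT B. Protein-coding genes showed a stronger tilt of the same signs. Over 9516 genes, which share libraries and depth, the correlation was -0.31 in knockdown A, 0.44 in knockdown B, 0.41 in WT A and -0.44 in WT B. The mitochondrial share of counts was 0.485%, 0.784% and 0.706% in knockdown libraries A to C, against 0.840%, 0.629% and 0.699% in WT libraries A to C, so it was lowest in knockdown A and highest in WT A. The part of these library differences in the values of Malat1, Neat1, Xist and Tug1 was not tested.

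**Figure D4:**
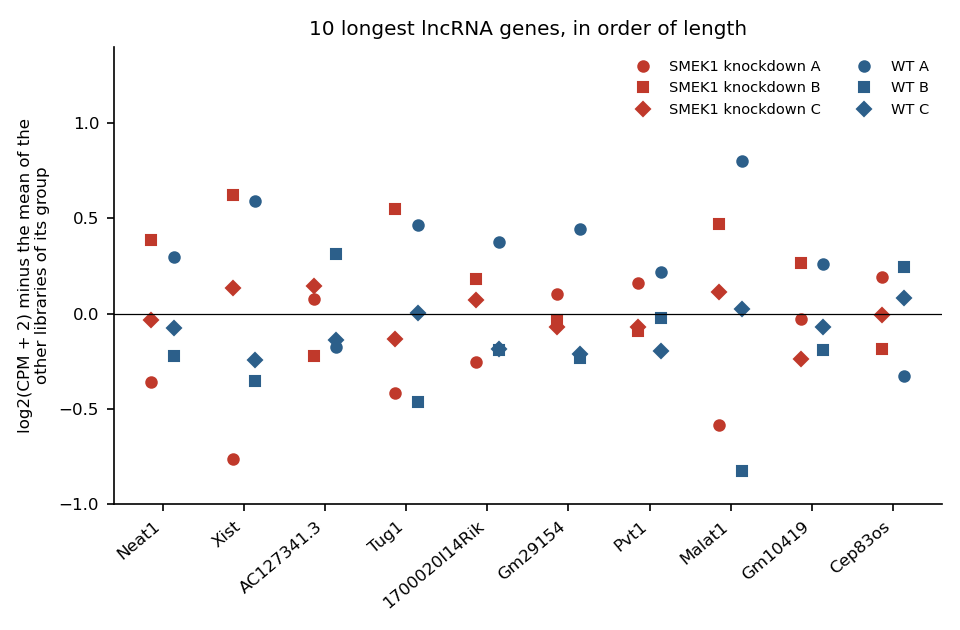
Deviation of each library from the mean of the other libraries of its group, as log2(CPM + 2) (y axis), for the 10 longest lncRNA genes from the longest at the left (x axis), with SMEK1 knockdown libraries left of WT libraries. Knockdown B and WT A lie high for Neat1, Xist, Tug1 and Malat1, and knockdown A lies low for the same 4 genes.

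Other lncRNAs with a described role gave smaller changes. Norad (2900097C17Rik), which binds Pumilio proteins, had 1288, 1913 and 1451 counts in knockdown libraries A to C, against 1108, 804 and 942 in WT libraries A to C. It rose by 0.42 on the log2 scale (SE 0.12 and adjusted p = 0.0136), a call lost without WT B (adjusted p = 0.0523). Cyrano (1700020I14Rik, also Oip5os1), which directs the decay of miR-7 in mouse, had 189, 282 and 261 counts in knockdown libraries, against 382, 258 and 262 in WT libraries. It fell by 0.59 (SE 0.16 and adjusted p = 0.0128), or had -0.44 without WT A, where it was not called (adjusted p = 0.053). Tug1 had a log2 fold change of 0.22 (SE 0.21 and adjusted p = 0.434), with overlapping groups.

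Pvt1, the lncRNA downstream of the oncogene Myc, had 82, 81 and 81 counts in knockdown libraries A to C, against 112, 87 and 79 in WT libraries A to C, and a log2 fold change of -0.46 (SE 0.20 and adjusted p = 0.0836). Myc itself had 41, 34 and 34 counts in knockdown libraries, against 12, 9 and 14 in WT libraries, and rose by 1.35 (SE 0.33 and adjusted p = 0.00668). Lockd, an lncRNA gene next to the cell cycle inhibitor gene Cdkn1b, had -0.10 (adjusted p = 0.723), while Cdkn1b fell by 0.52 (SE 0.16 and adjusted p = 0.0207). Hotairm1, an antisense transcript of the HoxA cluster known from myeloid cells, had 212, 239 and 168 counts in knockdown libraries, against 197, 202 and 202 in WT libraries (log2 fold change -0.24, adjusted p = 0.293).

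Epb41l4aos had the highest FPKM of the set, 85.0 ± 8.91 in knockdown libraries and 131 ± 7.34 in WT libraries (SD, n = 3 each). Its counts were 780, 802 and 759 in knockdown libraries A to C, against 989, 1004 and 965 in WT libraries A to C. It fell by 0.62 (SE 0.10 and adjusted p = 0.000376) with no overlap. A list of 27 lncRNAs of inflammation and stress had 12 tested genes found by symbol. Of these 0 were called higher and 2, Epb41l4aos and Malat1, lower, with a median of -0.19. The share called was 16.7%, beside 40.1% of all genes tested. Also at an unadjusted p under 0.05 or with DESeq2, 0 were higher. Norad and Oip5os1 (Cyrano) are on the list too, but were left out of these counts because the count table gives them clone names. Norad was called higher (log2 fold change 0.42) and Cyrano lower (-0.59).

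Of the 111 genes that matched a RefSeq gene at the same place 6 are protein-coding there. The most counted gene of the set is one of these: 1810058I24Rik (Stmp1), which encodes a small mitochondrial protein, had 2386, 2750 and 2724 counts in knockdown libraries A to C, against 1805, 1835 and 1766 in WT libraries A to C. It rose by 0.25 (SE 0.08 and adjusted p = 0.0194), which no longer passed when WT A, WT C or knockdown C was left out. Ndufb1-ps, listed under the name of a respiratory chain subunit pseudogene, averaged 103 ± 4.19 CPM in knockdown libraries and 119 ± 19.5 CPM in WT libraries, which overlap (log2 fold change -0.20, adjusted p = 0.159; -0.33 and adjusted p = 0.012 without WT A). Tmem250-ps, another of them, rose by 0.39 (SE 0.11 and adjusted p = 0.0141).

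Of the 30 genes with a symbol other than a clone name or number 9 rose, 4 fell and 17 were not called. The share called was 43.3%, close to the 40.1% of all genes tested. The share higher was 30.0%, beside 20.5% of all genes tested, and the share lower 13.3%, beside 19.6%. The risen ones not described above were Dubr (0.72, adjusted p = 0.0344), Eif2c5 (0.58, adjusted p = 0.0135), Tnfsf13os (0.57, adjusted p = 0.0468), Trmt61b (0.53, adjusted p = 0.0187) and Rab10os (0.37, adjusted p = 0.0296). Rab10os overlaps Rab10, a gene of vesicle transport, which rose by 0.23 (adjusted p = 0.0374). Zfp335os fell by 0.67 (adjusted p = 0.038) and Zfp335, a zinc-finger gene on the other strand, by 0.29 (adjusted p = 0.0337). The 8 not yet named that were not called were Brip1os, Map2k3os, Sp3os, Platr27, Zbtb11os1, Gt(ROSA)26Sor, Rab26os and Ttc39aos1, with log2 fold changes of -0.23 (Platr27) to 0.45 (Zbtb11os1). The calls of Dubr, Eif2c5 (without WT C), Tnfsf13os, Zfp335os, Trmt61b and Rab10os were each lost when some single libraries were left out.

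Over all 132 lncRNA genes with a tested protein-coding gene within 100 kb, 69 (52.3%) had the sign of their nearest one, beside 5411 of 9816 (55.1%) protein-coding genes and their own nearest. Across these pairs the Spearman correlation of the log2 fold changes was 0.09, and pairs share libraries and some share reads. By position, 31 of 47 lncRNA genes that overlap the neighbour on the opposite strand had its sign, beside 995 of 1803 (55.2%) of such protein-coding pairs. Of the 17 called in that class 5 rose with a partner that rose and 3 fell with a partner that fell, and 2 had a partner called the other way. Beside this, 20.5% of all genes tested were called higher and 19.6% lower. Among the 17 genes Gm17201 and its partner Ankrd52 both fell, by 0.72 and 0.67. But 59.5% of the exon bases of Gm17201 are shared with an exon on the opposite strand, so the falls may not be separate. Of the 142 genes 54 share exon bases with an exon on the opposite strand and 8 share at least 25%. How the counting used strand is not stated, so those reads cannot be told apart.

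Genes of RNA decay, which sets the level of many lncRNAs, were called about as often as other genes. Of 22 tested, 4 were called higher and 6 lower (45.5% in all, beside 40.1% of all genes tested), with a median of -0.01. Upf1, the helicase of nonsense-mediated decay, fell by 0.95 (SE 0.08 and adjusted p = 4.01e-06), and Zfc3h1, which links nuclear polyadenylated RNA to the exosome, fell by 1.42 (SE 0.21 and adjusted p = 0.000254). Exosc5, an exosome subunit gene, fell by 0.59, while Exosc8 rose by 0.67. The part of these genes in the lncRNA levels was not tested.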

How the data were processed

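RNA-seq of 3 SMEK1 knockdown and 3 WT BV2 libraries was analysed from the whole-number counts per gene that the authors deposited. Their deposited FPKM (counts per length and per library constant) gave levels per length and an alternative test. The build was GRCm38 (mm10), per the submitters' processing notes; the aligner, counter, strand setting and annotation release are not stated in the labels or file headers used. Starts and ends equalled GENCODE M21 for 139 of the 142 genes. Members, lists and the naming rule were chosen with earlier results of these data known.

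Counts were fitted with edgeR 4.0.16 in R 4.3.3 (filterByExpr, TMM, glmQLFit, glmQLFTest, no covariates), with Benjamini-Hochberg adjustment over all 12269 genes kept, and called at an adjusted p under 0.05. All adjusted p-values are from this test unless another is named. Fold changes are log2 ratios (knockdown over WT), each SE is the fold change over the root of its F statistic, and CPM are TMM-scaled. Groups overlap where their CPM ranges do. Named genes were those with a proper symbol, the 10 largest called rises and falls without overlap, their neighbours, microRNA hosts, listed members called and the genes next to the threshold. Shares were compared by two-sided exact permutation. Transcript copies were sought with BLAST 2.17.0 at 95% identity over 50% of the transcript. The fit was tested on simulated counts. Intervals of counting error are not given, since reads carry no stated molecular identifiers.

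Alternatives were DESeq2 size factors, library totals, other filters, DESeq2 1.42.0, limma-voom (limma 3.58.1), limma on log2(FPKM + 1) and log2(FPKM + 0.1), a replicate block, an adjusted p under 0.01, and each library left out in turn.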

Additional observations from a re-analysis of the deposited data

How the results depend on the processing

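The 36 rises and 19 falls became 18 and 9 at an adjusted p under 0.01, and 20 and 11 with a replicate block, of which the cause was not tested. Libraries of the same letter did not deviate together (correlations of same-letter deviations -0.36, -0.33 and 0.0025 over 12269 genes), while knockdown B and WT A did (0.41). These values cannot show whether libraries of the same letter were handled together. Library totals in place of TMM gave 49 and 10, where the median of all genes moved by construction. Leaving out single libraries gave 24 to 36 rises and 10 to 18 falls, with 10 falls without knockdown C. The other settings gave 29 to 37 rises and 15 to 22 falls; of the main calls 29 rises and 15 falls were shared with DESeq2. The difference in the share of counts stayed positive, from 0.0104 to 0.0204 percentage points over single libraries left out and at 0.0215 without Malat1. With overlapping pairs counted as divergent, the 12 rises and 1 fall became 15 and 4. The count of neighbours of the same sign was 29 of 56 among genes that overlap no other, and 67 to 75 of 132 over libraries left out. For 52 named genes and 826 alternative values, 736 kept the side of the threshold, 82 lost the call, 8 gained it and 0 reversed a call. Among the 736 are values of Brip1os, Lockd and Rab26os, genes not called, whose sign changed. The low counts of many of these genes, near 300 over 6 libraries, limit what can be detected.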

Other observations

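Several lncRNAs with known roles in microglia or in imprinting were below the threshold of 300 counts and were not part of the set. Mir155hg, the host of the inflammatory miR-155, had 8, 20 and 5 counts in knockdown libraries A to C, against 4, 2 and 1 in WT libraries A to C, and was too low to be tested. Kcnq1ot1, the imprinting lncRNA of the Kcnq1 domain, had 26, 42 and 18 counts in knockdown libraries, against 46, 22 and 45 in WT libraries, which overlap. Airn had 24, 50 and 36 in knockdown libraries, against 29, 19 and 38 in WT libraries. H19, Meg3, Rian and Nespas were at 0 in all 6 libraries. B930095G15Rik, just under the threshold, had 21, 32 and 27 counts in knockdown libraries, against 93, 51 and 70 in WT libraries.

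Host and snoRNA-type transcripts outside the lncRNA classes of the table are given for 3 genes, none of them called. Zfas1, a highly expressed snoRNA host listed as a processed transcript, had 4372, 3361 and 3766 counts in knockdown libraries, against 2829, 3245 and 3162 in WT libraries (log2 fold change 0.04, SE 0.14 and adjusted p = 0.839, edgeR quasi-likelihood). Dleu2, the host of miR-15a and miR-16-1, had -0.65 (SE 0.29 and adjusted p = 0.0968), and Mir22hg had 0.16 (SE 0.24 and adjusted p = 0.614).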
